A study of Mus musculus with 42 samples.

Results

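9 genes that encode mesenchymal transcription factors were followed through 8 RNA-seq libraries: Twist1, Twist2, Snai1, Snai2, Zeb1, Zeb2, Msx1, Msx2 and Prrx1. They were chosen by gene symbol, and all 9 were found among the 24466 genes of the count files. The libraries came from iPax7 cells, myogenic precursors made from mouse embryonic stem cells in which doxycycline (Dox) switches on Pax7. They were grown with Dox (+Dox, 3 libraries) or harvested 3 days after Dox was removed (-Dox, 2 libraries). The third group was satellite cells, the stem cells of adult muscle, taken from mouse muscle with a Pax7-ZsGreen reporter strain (3 libraries). Both iPax7 groups carry the same Pax7 transgene and differ in Dox. They are cultured cells and the satellite cells were isolated from muscle, so effects of cell source, culture and isolation cannot be told apart. The same study mapped Pax7 binding in iPax7 cells, and 4 histone marks in iPax7 cells and C2C12 myoblasts (an established mouse muscle line). Open chromatin (ATAC-seq) was mapped in these and in satellite cells. Some C2C12 myoblasts stably expressed flag-tagged Pax7 (Pax7-flag) or the flag tag alone (flag control), and C2C12 myotubes were differentiated in horse serum. The labels do not say whether the libraries of a group came from separate cultures or animals, so p-values measure only the spread between these libraries.

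These factors are known for keeping cells in a mesenchymal, undifferentiated state. Snai1 and Snai2 (Slug) are zinc finger repressors that bind E-boxes, the sequence that myogenic factors such as Myod1 also bind, and Zeb1 and Zeb2 are zinc finger and homeodomain repressors of the same kind of site. Twist1 and Twist2 are basic helix-loop-helix proteins that compete with Myod1 for E-protein partners. Msx1 and Msx2 are homeodomain repressors that hold back Myod1 in the limb bud, and Prrx1 is a paired-related homeodomain factor that marks limb and connective tissue mesenchyme.

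On the mm9 genome the genes lie at chr12:34642536-34644682 (Twist1), chr1:93698038-93744605 (Twist2), chr2:167363695-167368314 (Snai1), chr16:14705945-14709488 (Snai2), chr2:44839154-44972915 (Zeb2), chr5:38211724-38215822 (Msx1), chr13:53562250-53568443 (Msx2) and chr1:165175247-165243841 (Prrx1). Of 2455 Pax7 sites in +Dox cells, 7 had the start site of one of these genes as their nearest start site, and they belonged to 5 of the 9 genes. Only the 20660 genes of the count files with an annotated start site were considered, and 8.66% of them had such a Pax7 site. Distances are to the nearest annotated start site of the gene, of which Prrx1 and Zeb1 have 4 each and Zeb2 has 3. Prrx1 had 2 sites, one 67.28 kb downstream of such a start site and between genes. The other lay 11.34 kb downstream of one, in a Prrx1 intron and over an exon of the predicted gene Gm17698. Zeb1 also had 2, one 29.3 kb upstream in an intron of the predicted gene Gm10125 and one 90.75 kb downstream in a Zeb1 intron. Zeb2 had a site 43.03 kb downstream of a start site, in a Zeb2 intron. Snai1 had one 21.48 kb beyond its start in an intron of the predicted gene Gm11476. Twist2 had one 59.71 kb beyond its start between genes. For Twist1, Snai2, Msx1 and Msx2 none was assigned, and none lay within 100 kb of their start sites. Of all 20660 genes 19% had a Pax7 site within 100 kb, as did 5 of these 9. A further site 77.62 kb upstream of Prrx1, in an intron of Gorab, was nearer to the start of that gene. No Pax7 site lay within 5 kb of a start site of any of the 9 genes, so all 7 were distal. Of all 20660 genes only 1.53% had a Pax7 site within 1 kb of a start site. Having none that near thus does not set these 9 genes apart.

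The central 300 bases of 4 sites are shown because they are the Pax7-bound DNA nearest to Prrx1, Snai1 and Twist2. They are read from mm9 on the + strand, 5′ to 3′. Capitals mark TAAT or its reverse complement ATTA, the core that homeodomains bind, and GTCAC or its reverse complement GTGAC, a core of paired domain sites.
Prrx1 site, chr1:165151928-165152227: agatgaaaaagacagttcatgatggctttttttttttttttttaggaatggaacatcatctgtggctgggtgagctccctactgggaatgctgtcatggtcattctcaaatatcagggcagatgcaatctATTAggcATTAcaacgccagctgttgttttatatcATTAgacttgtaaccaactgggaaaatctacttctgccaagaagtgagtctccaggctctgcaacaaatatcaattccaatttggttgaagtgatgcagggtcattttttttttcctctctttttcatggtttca
Prrx1 site, chr1:165232312-165232611: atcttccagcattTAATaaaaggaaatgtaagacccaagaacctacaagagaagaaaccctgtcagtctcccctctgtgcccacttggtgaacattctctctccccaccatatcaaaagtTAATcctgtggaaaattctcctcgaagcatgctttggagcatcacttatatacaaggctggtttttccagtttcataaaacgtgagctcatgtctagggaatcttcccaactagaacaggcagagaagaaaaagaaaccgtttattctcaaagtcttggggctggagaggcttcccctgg
Snai1 site, chr2:167385026-167385325: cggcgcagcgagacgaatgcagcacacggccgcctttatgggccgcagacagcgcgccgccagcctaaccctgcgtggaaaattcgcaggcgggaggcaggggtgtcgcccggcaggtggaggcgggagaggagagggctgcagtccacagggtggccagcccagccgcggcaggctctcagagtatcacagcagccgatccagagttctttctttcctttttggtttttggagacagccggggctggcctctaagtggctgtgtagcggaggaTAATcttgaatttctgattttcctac
Twist2 site, chr1:93757597-93757896: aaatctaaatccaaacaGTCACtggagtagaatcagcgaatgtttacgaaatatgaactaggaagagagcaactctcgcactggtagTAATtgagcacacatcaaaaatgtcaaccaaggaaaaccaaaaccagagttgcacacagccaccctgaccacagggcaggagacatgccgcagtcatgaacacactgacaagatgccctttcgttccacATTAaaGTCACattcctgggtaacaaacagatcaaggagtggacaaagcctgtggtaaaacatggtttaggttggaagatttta

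Letters were counted in these 4 windows and in those of the 2 Zeb1 sites. All 6 held at least 1 TAAT core, as did 82.8% of the central windows of all Pax7 sites. The Twist2 window held 2 GTCAC cores and the other 5 held none, against 49.2% of all Pax7 windows with at least 1. Palindromes in which 2 TAAT cores face each other across 2 or 3 bases were in none of the 6 and in 1.02% and 1.67% of all. An E-box (CANNTG) was in 5 of the 6 windows, all but that of Twist2, and in 81.2% of all. The counts cover both strands, and a match describes the letters in the window only.

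Total counts on genes ran from 48203901 to 54674619 in the iPax7 libraries and from 39010958 to 43811197 in satellite cells. Counts were divided by TMM effective library sizes (normalized counts), and 7 of the 9 genes passed the filter on low counts, the exceptions being Twist2 and Msx2. Pax7, the check on the labels, had 12833 normalized counts on average in +Dox, 245 in -Dox and 5962 in satellite cells. The +Dox replicate 3 stood apart from the other two, with a chi-square per degree of freedom of 440 and 317 against them where those 2 had 49.4 between themselves. The satellite libraries differed among themselves by 271 to 444. Satellite cell markers, 8 in all, were each higher in satellite cells than in -Dox, and 6 of them were higher than in +Dox. All 10 myofiber markers were higher in -Dox than in +Dox, with summed normalized counts of 1738361 to 1828414 against 4334 to 4539. In bulk libraries, fewer cells of a type and less RNA per cell cannot be told apart.

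Markers of other cell types and of tissue dissociation differed between satellite cells and both iPax7 groups. Of all tested genes 25.1% were called higher in satellite cells than in +Dox and 20.9% higher than in -Dox. All 6 endothelial markers were higher in satellite cells than in +Dox, with sums of 13945 to 21354 against 5.18 to 167 in +Dox and 1.84 to 22.2 in -Dox. Cdh5, the endothelial cadherin, was at 0 in all iPax7 libraries. Of 10 fibro-adipogenic markers 8 were higher than in +Dox (sums of 184801 to 406274 against 32039 to 33636), as were 4 of 5 tenocyte (16041 to 23649 against 95.4 to 178), 5 of 6 pericyte and smooth muscle (19942 to 38949 against 3171 to 7270), 5 of 5 Schwann cell (7350 to 10410 against 301 to 542) and 4 of 5 tested blood cell markers (2725 to 10388 against 158 to 464). In -Dox the sums of these 5 lists were 10165 to 15636, 186 to 196, 54177 to 54529, 184 to 213 and 205 to 307. Single genes made up most of some of these sums. Of the pericyte and smooth muscle list, Acta2 averaged 53915 in -Dox, Pdgfrb 289, Cspg4 69.9, Rgs5 42.8, Myh11 35.5 and Kcnj8 0. Of the fibro-adipogenic list, Gsn averaged 25059 in +Dox, Ly6a 5063 and Col3a1 2716, with every other marker at 50.2 (Dcn) or less. Ptprc, the pan-leukocyte phosphatase, was at 0 in all iPax7 libraries, and Lum and Tnmd at 0 in +Dox. The 12 dissociation response genes, such as Fosb and Hspa1a, were all higher, with sums of 1438237, 499856 and 848659 in satellite replicates 1, 2 and 3 against 7116 to 10932 in +Dox and 10711 to 12253 in -Dox. The satellite cells were isolated by the Pax7-ZsGreen reporter, a selection meant to remove such other cells. Several of the 9 genes are known to be active in such cells, and the part of other cell types or of dissociation in the satellite results below was not tested.

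Per kilobase of exon the 9 genes covered a wide range in +Dox cells. Snai1 stood at 20.0 ± 3.77 CPM per kb (TMM-normalized CPM divided by exon length, mean ± SD, n = 3) and Snai2 at 19.7 ± 3.34, and their ranges overlapped. Zeb1 followed at 5.47 ± 2.39 and Prrx1 at 3.95 ± 0.603, also with overlapping ranges, then Zeb2 at 1.28 ± 0.264 and Twist1 at 0.852 ± 0.435, whose ranges overlapped too. Twist2 was at 0.168 ± 0.281, and Msx1 and Msx2 had no count. After Dox removal Snai1 (11.0 ± 2.91, n = 2), Zeb1 (10.3 ± 0.0983) and Snai2 (9.51 ± 1.54) lay at like levels, with ranges of neighbours that overlapped. They were followed by Prrx1 (6.74 ± 1.94), Zeb2 (2.55 ± 0.31) and Twist1 (0.0782 ± 0.0935), whose ranges did not overlap with their neighbours. In satellite cells Snai2 (29.2 ± 14.8, n = 3) led by its mean, with no overlap with Zeb1 (12.8 ± 1.32). Its range of 15.6 to 44.9 overlapped with that of Snai1, 6.12 to 21.1. Zeb1, Zeb2 (12.2 ± 1.97) and Snai1 (11.1 ± 8.6) overlapped as neighbours, and Prrx1 (3.61 ± 1.74) lay below them. Twist1 (0.247 ± 0.189), Msx1 (0.222 ± 0.209) and Twist2 (0.0916 ± 0.0799) overlapped at the foot of the order, above Msx2 with no count.

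**Figure D1:**
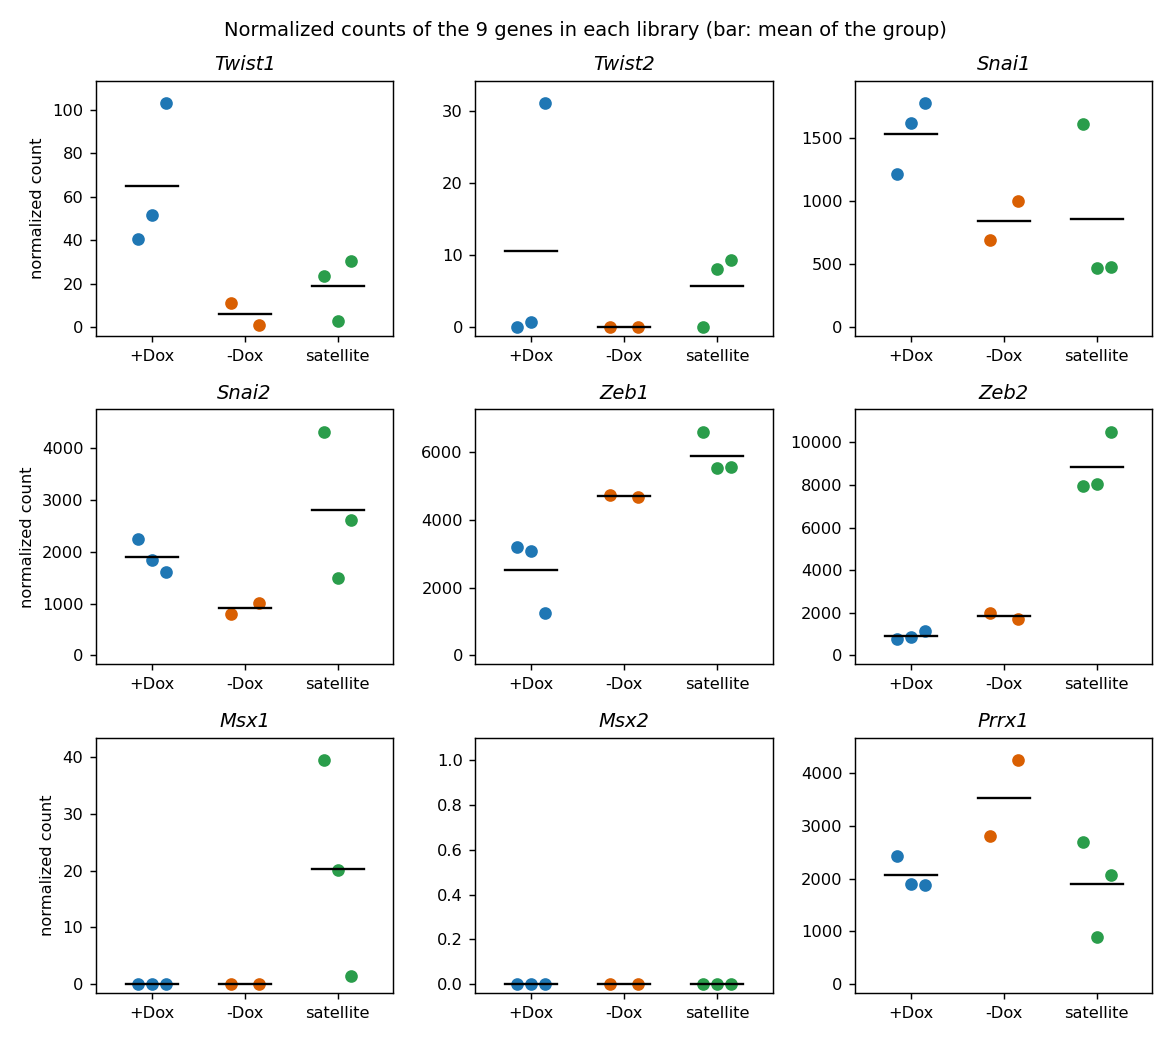
Normalized counts (y axis, linear, one scale per panel) of the 9 genes in each library, with points for libraries, bars for group means and the 3 groups on the x axis. The 3 satellite libraries of Zeb2 sit between 7953 and 10494, above every iPax7 library, and Msx2 is at 0 throughout.

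The first comparison asked how the 9 genes moved when Pax7 was switched off. The Snai pair and Twist1 were lower in both -Dox libraries than in any +Dox library, and the Zeb pair and Prrx1 were higher in both, but no gene of the 9 passed the test. Msx1, at 0 in both groups, was also tested and could not separate. Groups did not overlap for the other 6 of the 7 tested genes, against 45.3% of all tested genes. That share still counts genes at 0 in both groups, such as Ocln, so the 2 bases are not alike. With 3 libraries against 2 an exact permutation test cannot go below 0.1. By edgeR's quasi-likelihood test, with p adjusted after Benjamini and Hochberg, 0 of 7 were called, against 7.70% of 14836 genes. An unadjusted p under 0.05 was reached by 3 of the 7, against 21.6% of all tested genes, and DESeq2 called 1.

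Snai1 had 1215, 1618 and 1775 normalized counts in +Dox and 687 and 1002 in -Dox. Snai2 had 2238, 1840 and 1603 in +Dox and 809 and 1018 in -Dox. Both -Dox libraries were thus below all +Dox libraries for both genes, with log2 fold changes of -0.86 (SE 0.575) for Snai1 and -1.05 (SE 0.442) for Snai2. Neither passed (edgeR adjusted p = 0.448 and 0.204). Fitted on the 2 iPax7 groups alone, Snai2 passed with an adjusted p of 0.041.

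Zeb1, on chromosome 18, lay the other way, with 3195, 3092 and 1248 normalized counts in +Dox and 4746 and 4682 in -Dox. The low value came from +Dox replicate 3, which stands apart. The log2 fold change was 0.91 (SE 0.38, edgeR adjusted p = 0.202), and 0.58 without that library. Zeb2 had 777, 874 and 1147 in +Dox and 2012 and 1693 in -Dox, a log2 fold change of 0.99 (SE 0.28). This was the closest of the 9 to the threshold, with an edgeR adjusted p of 0.0651. It was called by DESeq2 (adjusted p = 0.0126), on the 2 groups alone (0.0484) and without +Dox replicate 3 (0.038), and the adjusted p over all alternatives ran from 0.00419 to 0.401.

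Twist1 was scarce in all libraries. Its normalized counts were 40.6, 51.8 and 103 in +Dox against 11 and 0.923 in -Dox, the largest log2 fold change of the tested genes in this comparison (-3.42, SE 1.71, edgeR adjusted p = 0.29). These rest on 237 reads in +Dox and 13 in -Dox, and the value was -5.96 without -Dox replicate 1 and -2.54 without -Dox replicate 2. Prrx1 had 2434, 1891 and 1883 in +Dox and 2812 and 4248 in -Dox, a log2 fold change of 0.77 (SE 0.435, edgeR adjusted p = 0.356). Twist2 had 0, 1 and 34 reads in +Dox and none in -Dox, so its +Dox signal came from replicate 3, the library that stands apart, and it was not tested. Msx1 and Msx2 had no read in any of the 5 iPax7 libraries, where a count of 0 allows up to 3 reads over each group.

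The second comparison set satellite cells against +Dox cells. Both Zeb genes were higher in satellite cells, Zeb2 by 9.48-fold and Zeb1 by 2.34-fold, and Msx1 was detected only in satellite cells among these libraries. The other 4 tested genes, Snai1, Snai2, Twist1 and Prrx1, did not pass. Msx1 had no read in iPax7 cells and passed the filter on low counts through the satellite group alone, so its direction was set by the filter and it is left out of the counts that follow. By edgeR's quasi-likelihood test 2 of the other 6 were called, against 44.9% of all tested genes, both higher in satellite cells, against 25.1%. Groups did not overlap for 3 of the 6, against 56.5% of all tested genes. The shares over all tested genes still count genes that, like Msx1, had no read in iPax7 cells, such as Cdh5. The median log2 fold change of the 6 was 0.22 beside 0.17 over all tested genes.

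Zeb2 had 7953, 8069 and 10494 normalized counts in the satellite libraries. The lowest of these was several times the highest of the 777 to 1147 in +Dox, and the log2 fold change was 3.24 (SE 0.276, edgeR adjusted p = 3.83e-05). It was called in all 15 alternative fits, with log2 fold changes of 3.08 to 3.42. Zeb1 had 6593, 5515 and 5567 in satellite cells, all above the 1248 to 3195 of +Dox, a log2 fold change of 1.23 (SE 0.349, edgeR adjusted p = 0.0181) that was likewise called in all 15. Without +Dox replicate 3 it was 0.91 (adjusted p = 0.0127). The exons of Zeb2 share 458 bases with Gm13476, a predicted gene on the opposite strand. The count files do not list that gene and strand use in the counting is not given in the sources used here, so reads from the 2 strands cannot be told apart there.

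Msx1 had 30, 15 and 1 reads in satellite replicates 1, 2 and 3 and none in iPax7 cells. Its mean of 20.3 normalized counts was at least 25.4-fold higher than +Dox, taking 3 reads over the +Dox group as the limit. The edgeR adjusted p of 0.0467 (0.034 to 0.0929 in 10 alternative fits) is given as a value only, since a gene at 0 in iPax7 cells had to be higher in satellite cells to be tested. It did not pass the filter on low counts when satellite replicate 1 or 2 was left out.

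Snai1 had 1615, 469 and 477 normalized counts in satellite cells, so replicate 1 lay within the +Dox range and the other 2 lay below it. Replicate 1 was also the library with the highest sum of dissociation response genes. The log2 fold change was -0.85 (SE 0.505, edgeR adjusted p = 0.198), and without satellite replicate 1 it was -1.69 (adjusted p = 0.00568). Snai2 had 4313, 1495 and 2614, with the same replicate highest, and overlapped with +Dox (log2 fold change 0.57, SE 0.383, edgeR adjusted p = 0.253, and 0.12 without satellite replicate 1). Whether dissociation plays a part in either value was not tested.

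Twist1 had 23.7, 2.68 and 30.3 normalized counts in satellite cells, below all +Dox libraries (log2 fold change -1.78, SE 1.35, edgeR adjusted p = 0.311). Prrx1 had 2693, 899 and 2077, around its +Dox level (log2 fold change -0.13, SE 0.395, edgeR adjusted p = 0.815). Leaving out satellite replicate 2, its lowest library, moved this to 0.21. Twist2 had 0, 6 and 7 reads, and Msx2 none.

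The third comparison set satellite cells against -Dox cells. Zeb2 was 4.77-fold and Snai2 3.07-fold higher in satellite cells, and Snai1, Zeb1, Twist1 and Prrx1 did not pass. Without Msx1, by edgeR's quasi-likelihood test 2 of 6 were called, against 39.0% of all tested genes, both higher in satellite cells, against 20.9%. Groups did not overlap for 4 of 6, against 64.3%, and these shares too count genes with no read in iPax7 cells. The median log2 fold change of the 6 was 0.97 beside 0.23 over all tested genes.

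Zeb2 had a log2 fold change of 2.25 (SE 0.309, edgeR adjusted p = 0.00055), called in all 15 alternatives. Snai2 had 1.62 (SE 0.453, edgeR adjusted p = 0.0193), and this call was lost without either -Dox library (adjusted p = 0.137 without replicate 1 and 0.0864 without replicate 2). Zeb1 lay at 5515 to 6593 in satellite cells against 4682 to 4746, apart but close (log2 fold change 0.32, SE 0.388, edgeR adjusted p = 0.536). Snai1 did not differ beyond its spread (0.02, SE 0.561, edgeR adjusted p = 0.989), and the sign turned to -0.83 without satellite replicate 1. Prrx1 was below both -Dox libraries in every satellite library (-0.90, SE 0.435, edgeR adjusted p = 0.125). Twist1 had 1.64 (SE 1.58, edgeR adjusted p = 0.431), which became 4.18 without -Dox replicate 1 and 0.72 without -Dox replicate 2. For Msx1 the edgeR adjusted p was 0.0935, with a mean at least 14.7-fold higher than -Dox on the same limit.

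**Figure D2:**
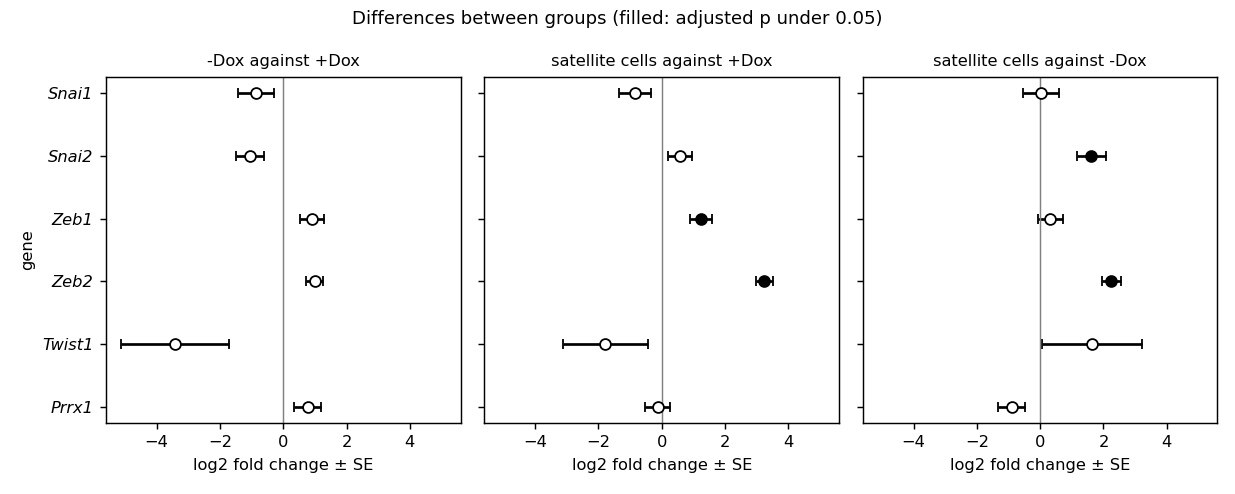
Log2 fold changes with standard errors (x axis) of the 6 genes with reads in all 3 groups that were tested (y axis), one panel per comparison. The standard errors were derived from the F statistic of the test. Filled points passed an adjusted p of 0.05, namely Zeb1 and Zeb2 against +Dox and Snai2 and Zeb2 against -Dox, and no point is filled for -Dox against +Dox.

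The balance within each pair of paralogs was also taken per library, as the log2 ratio of levels per kb with a pseudocount of 0.5. Snai2 over Snai1 was 0.56, -0.14 and -0.47 in +Dox, -0.09 and -0.30 in -Dox and 1.09, 1.35 and 2.13 in satellite cells. Every satellite library was thus tilted further to Snai2 than any iPax7 library, by 1.54 against +Dox (exact permutation test, two-sided, p = 0.1, adjusted p = 0.15 over 6 comparisons) and 1.72 against -Dox (exact p = 0.1, adjusted p = 0.15). Zeb2 over Zeb1 was -2.70, -2.48 and -0.78 in +Dox, -1.90 and -2.13 in -Dox and -0.39, -0.11 and 0.25 in satellite cells. The satellite libraries were again above all iPax7 libraries, by 1.91 against +Dox and 1.93 against -Dox (exact permutation test, p = 0.1 and adjusted p = 0.15 for each). A p of 0.1 is the smallest these designs allow. The -Dox and +Dox means differed by -0.18 for Snai2 over Snai1 and -0.02 for Zeb2 over Zeb1, less than the SD among +Dox libraries (0.52 and 1.05). The count files list 7.112% to 7.604% of iPax7 and 23.58% to 30.68% of satellite alignments as not unique, outside the gene counts, and how far this touches either pair was not tested.

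**Figure D3:**
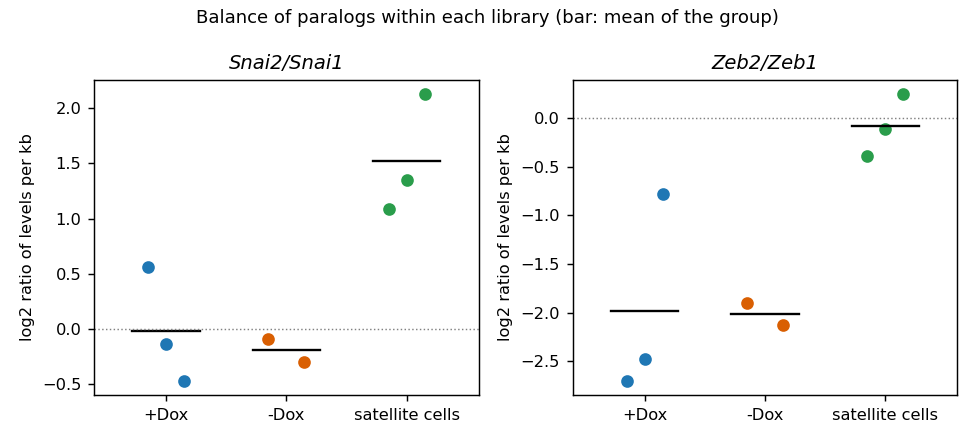
Log2 ratio of levels per kb (y axis) of Snai2 to Snai1 and of Zeb2 to Zeb1 in each library (points), with group means as bars and the 3 groups on the x axis. The satellite libraries lie above all iPax7 libraries in both panels, at 1.09 to 2.13 and at -0.39 to 0.25.

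Among all tested genes, those most like each member over the 8 libraries were found by the root mean square difference of mean-centred log2 CPM. Zeb2 was most like Foxn3 (0.204), 1810026B05Rik (0.232) and Xbp1 (0.248), and Zeb1 most like Txndc16 (0.153), Ttc3 (0.172) and Foxj3 (0.188). Snai1 was most like Plin3 (0.195), Clta (0.201) and Vps33b (0.257). For Snai2 they were Adgra2 (0.217), Pon3 (0.223) and Gatsl3 (0.246), for Prrx1 Pex16 (0.159), Dusp22 (0.208) and Fbxo8 (0.216), and for Twist1 Amigo2 (0.655), Ube2t (0.681) and Cxadr (0.736). For Msx1, at 0 in 5 of the 8, they were Ntng2 (0.16), Ccr8 (0.227) and C1rb (0.259). No member was among the 3 most like another, and the closest pair of members was Snai1 and Prrx1 at 0.775.

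The partners and relatives of these factors were counted from fixed lists. For comparison with this and the next lists, 7.70% of all tested genes were called in -Dox against +Dox. In satellite cells 44.9% were called against +Dox (25.1% higher) and 39.0% against -Dox (20.9% higher). Of 28 related mesenchymal and muscle repressor factors 22 were tested, and 1 was higher and 0 lower in -Dox than in +Dox. This was Bhlhe40, a helix-loop-helix repressor, at 5674 normalized counts against 1331 (log2 fold change 2.09, SE 0.478, edgeR adjusted p = 0.0286). In satellite cells against +Dox 8 were higher and 6 lower. Msc (MyoR), a helix-loop-helix repressor of myogenesis related to Twist, averaged 3616 normalized counts in satellite cells against 0.247 in +Dox and none in -Dox. Meox2, a homeodomain factor of limb muscle, averaged 467 against 0.304, and Hand1, a helix-loop-helix factor of the Twist class, was at 220 in +Dox, 230 in -Dox and 0 in satellite cells. Against -Dox 6 were higher, Osr2 with 1075 against 0 among them, and 4 lower. The list's median log2 fold changes were -0.07, 0.27 and -0.11 in the 3 comparisons, beside 0.00, 0.17 and 0.23 over all tested genes.

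All 15 corepressors and partners were tested. On Dox removal Sin3a, a scaffold of histone deacetylase complexes, fell from 3176 to 953 normalized counts (log2 fold change -1.74, SE 0.422, edgeR adjusted p = 0.0372), and Ctbp2, a corepressor bound by Snai and Zeb proteins, fell from 2437 to 1098 (-1.15, SE 0.277, adjusted p = 0.0359). Tcf4, an E-protein partner of Twist, rose from 2117 to 6195 (1.55, SE 0.299, edgeR adjusted p = 0.013) and stood at 20694 in satellite cells. These were 1 higher and 2 lower of 15, with a median of -0.67. Against +Dox 5 were higher and 2 lower in satellite cells, where 44.9% of all tested genes were called. Ajuba, a Snai corepressor, was at 34.3 against 479 and Rcor1, part of the CoREST complex, at 1710 against 480. Against -Dox 6 were higher and 2 lower, where 39.0% of all tested genes were called. Ctbp2 (4150) and Sin3a (3726) were among the higher ones.

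Of 15 genes of the TGF-beta and BMP inputs, which are known inducers of these factors, 14 were tested. On Dox removal 3 rose and 1 fell. Tgfb2 rose from 458 to 3113 normalized counts (log2 fold change 2.76, edgeR adjusted p = 0.00181) and Tgfb3 from 2803 to 10404 (1.89, adjusted p = 0.00192), whereas Bmp4 fell from 970 to 83.9 (-3.53, adjusted p = 0.00258). Against +Dox 10 were higher and 1 lower in satellite cells, with a median of 1.15. Bmp4 stood at 7212 there and Bmp2 at 1075, where +Dox had 3.47 of the latter. Against -Dox 5 were higher and 2 lower.

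Epithelial genes, the textbook targets of Snai and Zeb repression, were counted beside them. Of 22 genes 15 were tested, and on Dox removal 2 fell and 0 rose, with a median of -2.45. Both were keratins of simple epithelia, Krt8 from 13406 to 515 normalized counts (log2 fold change -4.70, SE 0.418, edgeR adjusted p = 0.000201) and Krt18 from 18351 to 464 (-5.30, SE 0.718, adjusted p = 0.00216). The other 13 were not called. Among these, Cldn3, Llgl2 and Pkp3 averaged 28.5, 3.46 and 11.1 in +Dox and 0 in -Dox, so their large fold changes rest on few reads. The median was the value of Dsp, at 4847 in +Dox and 889 in -Dox. Cdh1, the epithelial cadherin, was near 0 in all iPax7 libraries with 0 to 3 reads, and had 134, 43 and 0 reads in satellite cells. Epcam had 0 or 1 read in the iPax7 libraries, and 96, 0 and 1 in satellite replicates 1, 2 and 3. Against +Dox 2 of 15 were higher and 5 lower in satellite cells, including Cldn4 at 420 in +Dox and 0 in satellite cells. The tight junction gene Ocln averaged 134 in satellite cells and 0 in iPax7 cells. Against -Dox 1 was higher and 3 lower, with the desmosome gene Dsp at 22.0 against 889.

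Mesenchymal genes were all tested, 23 in number. On Dox removal 7 rose and 1 fell, Postn from 7.65 to 642 normalized counts (log2 fold change 6.34, edgeR adjusted p = 0.0272) and Tagln from 1206 to 12270 (3.35, adjusted p = 0.00226) among those that rose. Fap was at 0 in +Dox and 50.3 in -Dox. In satellite cells 14 were higher and 3 lower than in +Dox, and 10 higher and 4 lower than in -Dox. The higher ones were led by Col1a1, which is also on the fibro-adipogenic list, at 29543 against 2.46 and 18.9. The 3 lower than in +Dox were Cdh2 (514 against 11199), Cdh11 (167 against 602) and Tnc (2708 against 6426). Of 17 myogenic targets tested, 16 rose and 0 fell on Dox removal, with Actc1 going from 182 to 302024 and Myh3 from 109 to 62956. The 1 not called was Myod1, at 200 in +Dox and 140 in -Dox (log2 fold change -0.52, SE 0.412, edgeR adjusted p = 0.545). In satellite cells 11 were higher and 3 lower than in +Dox, and 4 higher and 11 lower than in -Dox, with Myod1 at 22962.

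At the start sites of the 9 genes iPax7 cells showed different combinations of histone marks. In +Dox cells Twist1, Twist2, Msx1 and Msx2 carried peaks of H3K4me3, a promoter mark, together with H3K27me3, the mark of Polycomb repression, and no H3K27Ac, a mark of active promoters and enhancers. This pattern was found at 9.43% of 20660 genes. Snai1, Snai2, Zeb1 and Zeb2 carried H3K4me3 and H3K27Ac without H3K27me3, as did 44.8% of genes. Prrx1 had all 3, though H3K27me3 touched only 50 bases of the window (3.85% of genes). In -Dox the same 4 genes had the H3K27me3 pattern (11.9% of genes), and Prrx1 joined the other 4 in the active one (44.3%). A gene was scored by any peak within 1 kb of any of its annotated start sites. Each file merged the replicates of a condition, so these are descriptions without a test.

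The 4 genes without H3K27Ac had the lowest mean RNA levels per kb in +Dox cells, Twist1 with 237 reads, Twist2 with 35, and Msx1 and Msx2 with none. Of the 2001 bases around the start site, H3K27me3 peaks covered 1003 at Twist1, 1494 at Twist2, 1936 at Msx1 and 1722 at Msx2 in +Dox and 900, 1039, 2001 and 1892 in -Dox. At the Snai2 start site H3K27Ac peaks covered 1943 bases in +Dox and 399 in -Dox, the widest change in this mark among the 9 genes, and at Snai1 they covered 794 and 658. At Zeb1, Zeb2 and Prrx1 they covered 1563, 1870 and 1838 in +Dox and 1369, 1815 and 1366 in -Dox. Over the whole genome H3K27Ac peaks covered 73141696 bases in +Dox and 49235900 in -Dox, and H3K27me3 peaks 91682039 and 65892957. The part of this general difference in the values at single genes was not tested. All 9 genes carried H3K4me1 and H3K4me3 in both conditions. Of all genes 63.7% in +Dox and 67.1% in -Dox had H3K4me1, and 62.3% and 68.2% had H3K4me3.

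Open chromatin was found at 8 of 9 start sites in +Dox, at 12 h and at 3 days without Dox and at 9 of 9 at 24 h, where 62.8% to 67.2% of all genes had an ATAC peak. Twist2 was the one without. Msx1 and Msx2, with no RNA, had ATAC peaks in +Dox with fold enrichments of 6.8 and 11.4, and at 3 days without Dox of 12.9 and 20.5. Snai1 had the highest fold enrichment of the 9 in +Dox (57.9) and 32.7 was reached at Snai2. In satellite cells 7 of 9 had a peak (60.1% of all genes), Twist2 and Msx2 being the exceptions, and Snai1 was at 7.81, Snai2 at 29.3, Zeb1 at 8.2, Zeb2 at 25.4 and Msx1 at 9.57. Fold enrichments are relative to each file's own background, and depth differed between files.

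**Figure D4:**
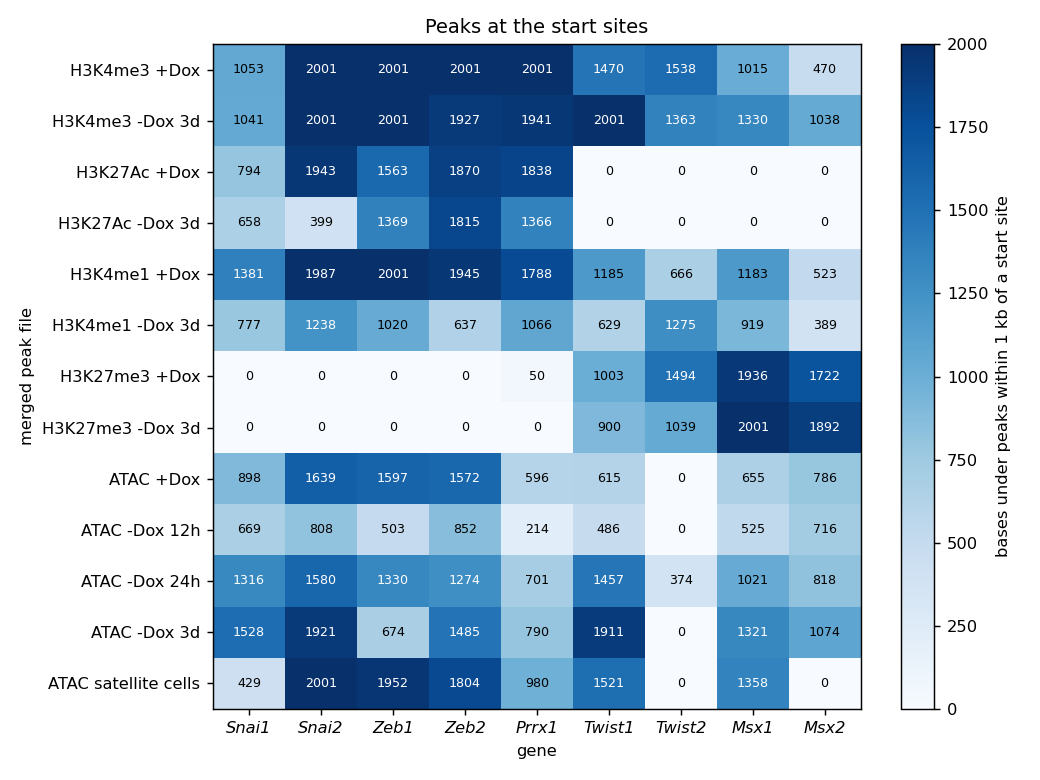
Bases covered by deposited peaks within 1 kb of a start site (colour and printed number, of 2001) for each of the 9 genes (x axis) in merged peak files of iPax7 and satellite cells (y axis), taking the start site with most coverage. The H3K27me3 rows are filled at Twist1, Twist2, Msx1 and Msx2, where the H3K27Ac rows are at 0.

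In C2C12 myoblasts the states were partly others. Twist1 had no ATAC peak in any of the 4 C2C12 files and no H3K4me3 or H3K27Ac peak, and H3K27me3 covered 1312 bases in flag control and 1263 in Pax7-flag cells. Twist2, with H3K27me3 and no H3K27Ac in iPax7 cells, had H3K27Ac over all 2001 bases in flag control cells and over 1902 in cells with Pax7-flag. It had no H3K27me3 peak in flag control cells, and with Pax7-flag H3K27me3 covered 975 bases. Msx1 carried H3K27Ac (1623 and 1601 bases) and no H3K27me3 or H3K4me3 there, and Msx2 had H3K27me3 over all 2001 bases in both. In flag control cells Msx2 also had H3K27Ac over 787 bases and H3K4me3 over 1117. With Pax7-flag it had no H3K27Ac peak and H3K4me3 over 1254 bases. RNA of C2C12 cells was not analysed here.

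At the 7 Pax7 sites nearest to these genes chromatin was open with Dox and less so without. In +Dox all 7 had an ATAC peak, with fold enrichments of 18.7 and 9.73 at Prrx1, 18 at Snai1, 22.9 at Twist2, 12.6 and 7.49 at Zeb1 and 16.4 at Zeb2. Their median of 16.4 lay near the 19.8 of all Pax7 sites, of which 95.4% had a peak. At 12 h without Dox all 7 were lower and 3 had no peak, namely the intronic Prrx1 site and both Zeb1 sites. Of all Pax7 sites 92.7% were lower at 12 h, 81.7% at 24 h and 79.3% at 3 days, so the 7 sites of these genes did as most sites did. At 3 days the Twist2 site stood at 12.0, Zeb2 at 5.36, Snai1 at 3.51 and the intergenic Prrx1 site at 3.33. The Pax7 site list itself holds only regions bound with Dox and not without.

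H3K27Ac lay over 6 of the 7 sites in +Dox and 4 in -Dox (73.2% and 37.9% of all Pax7 sites), H3K4me1 over all 7 in both (91.2% and 73.8%), and H3K27me3 over none in either (4.97% and 3.3%). The Twist2 site thus carried H3K27Ac in both conditions while its start site carried H3K27me3. In satellite cells 2 of the 7 sites had an ATAC peak, both at Prrx1, with fold enrichments of 36.5 and 4.69, against 53.0% of all Pax7 sites. The Zeb2 site had none there, while Zeb2 RNA was highest in satellite cells. In C2C12 cells with Pax7-flag 4 of 7 had a peak and in flag control cells 2 of 7, against 71.0% and 38.6% of all Pax7 sites. The Zeb2 site was among the 4 (4.77), had no peak in flag control cells and reached 21.1 in C2C12 myotubes.

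**Figure D5:**
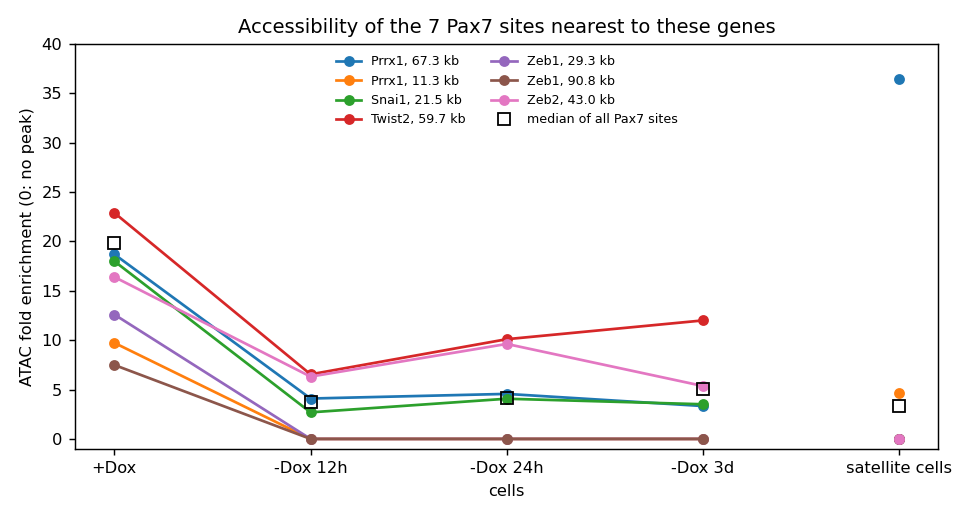
ATAC fold enrichment (y axis, 0 where no peak) at the 7 Pax7 sites nearest to these genes. The x axis gives iPax7 cells with Dox, 12 h, 24 h and 3 days after its removal, and satellite cells. Each site is labelled with its distance to the nearest annotated start site of its gene, and squares give the median of all Pax7 sites. All 7 are highest among the iPax7 conditions in +Dox, at 7.49 to 22.9, and 1 Prrx1 site reaches 36.5 in satellite cells.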

How the data were processed

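The authors aligned RNA-seq reads to mm9 and counted them per gene (processing notes: Trimmomatic 0.32, TopHat2 2.0, HTSeq 0.6), and deposited raw counts, 1 file a library. Rows that name no gene were left out (up to 30.68% of alignments not unique and 2.32% ambiguous). The deposited ChIP-seq peak lists hold positions only. The deposited ATAC-seq peaks (Bowtie2 2.2.6, MACS2 2.0.10, replicates merged) hold a score, a fold enrichment over background and −log10 p and q values, of which the fold was used. The merged files give 1 value per condition.

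Counts were filtered by expression, scaled by TMM and fitted in all 8 libraries with edgeR 4.0.16 (R 4.3.3, quasi-likelihood test), adjusted by Benjamini-Hochberg over 14836 genes and called at 0.05. The fit was tested on simulated data. Each SE was derived from the test, as the absolute log2 fold change over the square root of its F statistic. DESeq2 1.42.0, other scaling, no filter, fits on 2 groups and leaving out each library were alternatives. Paralog ratios used exact permutation tests (SciPy 1.17.1). The Twist and Msx ratios were not tested because a member was at or near 0 in most libraries, so p was adjusted over 6 comparisons. Exon lengths and start sites came from GENCODE M1 on mm9, which matched 20660 of 24466 genes. Genes named from lists were at most 3 called genes with the largest fold change per list and comparison, and markers at or near 0. A few others, such as Cdh2, Cdh11, Tnc and Ly6a, were named after their values were seen. The members and lists were chosen with earlier results of these data known. The sequence of 1 Pax7 site is not reported here. Replicate numbers came from the deposited files and did not pair the samples.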

Additional observations from a re-analysis of the deposited data

How the results depend on the processing

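The number of the 9 genes called in -Dox against +Dox (0) became 1 with DESeq2, 2 with the 2 groups fitted alone and 5 with a replicate block on the 2 groups, and ran from 0 to 1 when a library was left out. Across all genes these fits called 1142, 2270, 2155 and 4017. The replicate numbers do not pair the samples, with correlations of deviations from -0.11 to 0.0862. The number called in satellite cells against +Dox, with Msx1 counted (3), ran from 2 to 3 when a library was left out, and was 2 with DESeq2 and with no filter. Against -Dox (2) it ran from 1 to 2, and was 1 with the block. The Msx1 call was lost without any 1 of the 5 iPax7 libraries (adjusted p of 0.0715 to 0.0917).

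Signs turned for Prrx1 in satellite cells against +Dox (-0.47 to 0.21 when a library was left out, 0.21 without satellite replicate 2) and for Snai1 against -Dox (-0.04 with the 2 groups alone, -0.83 to 0.31 when a library was left out). They also turned for the paralog ratios in -Dox against +Dox, which ran from -0.40 to 0.11 for Snai2 over Snai1 and from -0.38 to 0.58 for Zeb2 over Zeb1. With only the ATAC peaks above each file's median −log10 q, start sites with a peak fell from 8 to 5 at 12 h without Dox, in flag control and in Pax7-flag C2C12 cells, and from 5 to 3 in C2C12 myoblasts. The other peak lists hold no strength, so no such alternative was possible. The cause of these changes was not tested. Of the log2 fold changes of single genes, 276 alternatives kept direction and side of the threshold, 10 passed it anew, 10 lost it and 6 reversed. At these depths 0 reads over a group allows up to 3.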
